A study of Mus musculus with 40 samples.

Results

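The ventral neural tube patterning factors described here are 10 transcription factor genes, *Pax6*, *Nkx6-1*, *Nkx6-2*, *Nkx2-2*, *Olig1*, *Olig2*, *Irx3*, *Irx5*, *Foxa2* and *Dbx1*. They were chosen by name, as homeodomain, basic helix-loop-helix and forkhead genes whose proteins divide ventral progenitors into domains. Each was found in the count table by its Ensembl identifier, which makes 10 of 55487 genes. In the developing neural tube, Sonic hedgehog from the notochord and floor plate forms a gradient that switches some of these factors on and others off. Factors of neighbouring domains repress each other, and the combination left in a progenitor sets which motor neuron or interneuron its daughters become. Some of the same genes are used again when progenitors turn to making astrocytes and oligodendrocytes.

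The study grew motor neurons and astrocyte-like cells (ES-motor neurons and ES-astrocytes) from an embryonic stem cell line of B6.Cg-Tg(Hlxb9-GFP)1Tmj/J mice, in which the promoter of the motor neuron gene Hb9 (*Mnx1*) drives green fluorescent protein. Embryoid bodies received retinoic acid and a smoothened agonist, which switches on hedgehog signalling in place of the ligand, so that every group shares this ventral induction. ES-astrocytes were then expanded with FGFb and EGF to passage 3, treated with forskolin, which raises cyclic AMP, and stimulated for 24 h, after which sorted fluorescent ES-motor neurons were plated on them and both were separated again by flow cytometry. Polyadenylated RNA of about 200 sorted cells per library was copied with a template switch, tagged with Tn5 and sequenced, and the authors deposited read counts per gene.

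There are 10 groups of 4 biological replicates (letters A to D), 40 libraries in all. They are the ES-astrocytes and the ES-motor neurons of 5 treatments of the ES-astrocytes, namely control, IL-1α and TNF-α, C1Q and C5, IL-1β and IL-6, and TGF-β2. The control and the IL-1α and TNF-α libraries carry plate index 1 and those of the other 3 stimuli plate index 2, so that these 3 stimuli cannot be told apart from the plate. ES-astrocytes and ES-motor neurons were also given different second index primers, and this cannot be told apart from the cell type. Depth, as total counts on genes, was 1510823 to 16054290 in ES-astrocytes (median 4670241.5) and 6557 to 19717324 in ES-motor neurons (median 1213482).

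Levels are given as CPM, counts scaled to 1e+06 by library total and edgeR's TMM factor, with the SD over libraries. A log2 fold change is negative where a gene is lower in ES-motor neurons, or lower with a stimulus. Calls required an adjusted p from edgeR no higher than 0.05, together with a log2 fold change beyond 1 in size. A fold against a group with no counts is a lower bound, computed against 3 counts summed over that group. No molecular identifiers are named, so these bounds and all counting intervals cover counting error only.

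The cell type labels were compared with marker genes. ES-motor neurons fit theirs, with *Mnx1* counted in 20 of 20 libraries at 319 to 3999.98 CPM. In ES-astrocytes the data go partly against the label. The astrocyte genes *Gfap*, *Aqp4* and *Aldh1l1* had 0 counts in all 20 ES-astrocyte libraries, and 7 of 10 astrocyte markers were found in any of them. The summed level of that list was 629 to 3151 CPM, and its most abundant gene was *Fabp7*, a gene of radial glia and young astrocytes, at 1426 ± 597 CPM (SD, n = 20). Neuron markers were present in the same libraries, 6 of 6, at a summed 1461 to 3318 CPM and with *Stmn2* at 971 ± 342 CPM. Markers of neural progenitors (6 of 6) summed to 51.8 to 245 CPM, with *Prom1* the most abundant. ES-astrocytes are therefore named here by their sort and label only.

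Several libraries stand apart. ES-astrocyte control replicate A has the highest *Mnx1* of its cell type (21.2 CPM), the lowest sum of astrocyte markers (629 CPM) and the lowest sum of ventral interneuron factors (129 CPM). It holds 209 of the 284 *Olig2* counts, 491 of the 1667 *Dbx1* counts, 345 of the 1905 *Foxa2* counts and 212 of the 717 *Irx3* counts of ES-astrocytes. ES-astrocyte C1Q and C5 replicate D has the next highest *Mnx1* (19.7 CPM) and 577 of the 2114 *Nkx6-2* counts. Among ES-motor neurons, C1Q and C5 replicate A holds 6557 counts in all and none on the 10 genes. Of the 40 libraries, 9 lie under 20% of the median total, and all 9 are ES-motor neurons, with all 4 of the IL-1α and TNF-α group among them. The 3 deepest ES-motor neuron libraries hold 69.7% of the counts of that cell type.

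**Figure D1:**
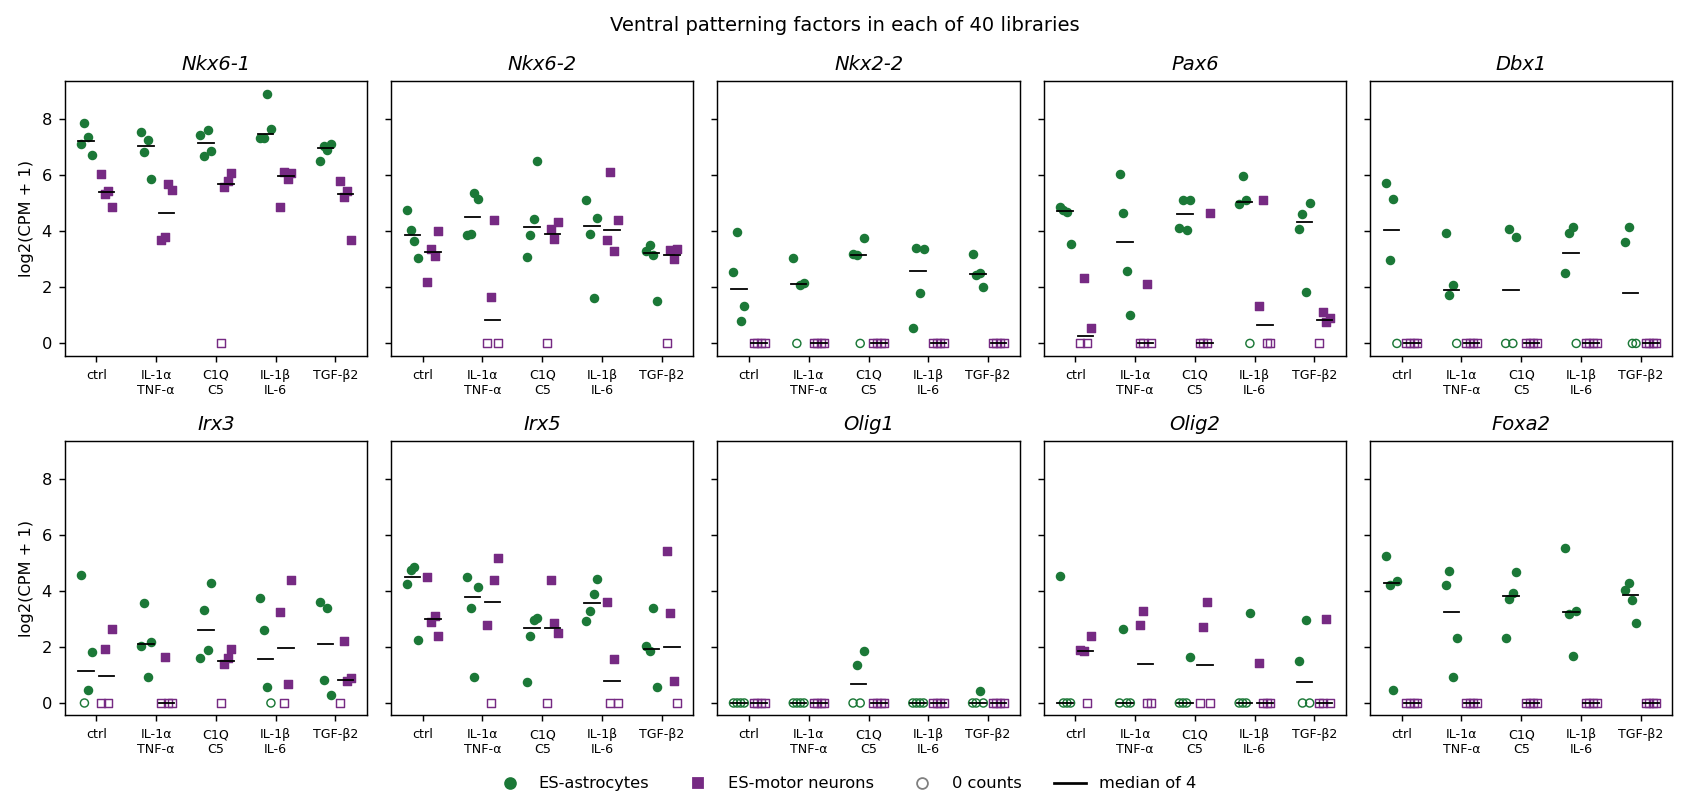
Level of each of the 10 genes in each of 40 libraries, as log2(CPM + 1), by treatment of the ES-astrocytes (horizontal axis) and cell type (circles, ES-astrocytes; squares, ES-motor neurons; open symbols, 0 counts; bars, median of 4 libraries). *Nkx6-1* is the highest of the genes in both cell types, and *Nkx2-2*, *Foxa2*, *Dbx1* and *Olig1* have no counts in any ES-motor neuron library.

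*Nkx6-1*, whose protein marks the ventral progenitor domains that give rise to V2 interneurons, motor neurons and V3 interneurons, was counted in all 20 ES-astrocyte libraries, at 56.6 to 479 CPM with a median of 144. In ES-motor neurons it was counted in 19 of 20 libraries, at 0 to 67.7 CPM with a median of 42.8, and the library at 0 is the 1 with 6557 counts. Within each of the 5 treatments the 4 ES-motor neuron libraries lay below the 4 ES-astrocyte libraries, which with C1Q and C5 rests on 3 ES-motor neuron libraries, since 3 counts stand for 202 CPM in replicate A. In control libraries the ranges were 105 to 232 CPM in ES-astrocytes and 28.1 to 65.1 CPM in ES-motor neurons. With IL-1α and TNF-α they were 56.6 to 184 and 11.8 to 50.2 CPM, the pair of ranges with the narrowest gap. With C1Q and C5 the ES-astrocytes lay at 103 to 196 CPM and the ES-motor neurons at 0 to 66.2 CPM. With IL-1β and IL-6 the ranges were 157 to 479 and 27.9 to 67.7 CPM, and replicate C alone made the upper end in ES-astrocytes, since the next library there had 197 CPM. With TGF-β2 they were 90.2 to 136 and 12.0 to 53.8 CPM. *Nkx6-1* was therefore present in ES-motor neurons at a lower level than in ES-astrocytes, in contrast to the genes below that have no count in them.

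Its log2 fold change over the 5 treatments was −1.89 ± 0.21 (SE; edgeR adjusted p = 1.15e-09). The log2 ratio of mean CPM was −1.96 within plate index 1 and −1.95 within plate index 2. By treatment it lay between −2.18 (IL-1β and IL-6) and −1.71 (TGF-β2), and a difference between treatments in this ratio was not tested. The −2.18 includes ES-astrocyte replicate C at 479 CPM. The −1.80 with C1Q and C5 includes the ES-motor neuron library at 0, with 6557 counts in all. These ratios therefore turn in part on single libraries, and the treatments are not ranked by them. In bulk samples such as these, fewer cells that express a gene and less RNA per cell cannot be told apart.

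*Nkx6-2*, the close relative of *Nkx6-1*, was counted in 20 of 20 ES-astrocyte libraries at 1.87 to 88.7 CPM (median 13.8) and in 16 of 20 ES-motor neuron libraries at 0 to 67.7 CPM (median 9.16). The ranges of the cell types overlapped in every treatment. Its log2 fold change over the 5 treatments was −0.67 ± 0.46 (edgeR adjusted p = 0.368), and without both ES-astrocyte libraries of highest *Mnx1* it was −0.34 (adjusted p = 0.721; 0.205 to 0.767 over its alternatives). A difference of *Nkx6-2* between the cell types was not detected, while *Nkx6-1* was called. Whether the genes differ in this was not tested.

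*Pax6*, a factor of intermediate and ventral progenitors that is absent from the most ventral domain, was counted in 19 of 20 ES-astrocyte libraries at 0 to 64.0 CPM with a median of 24.2. In ES-motor neurons 9 of 20 libraries held a count, with a median of 0 and a highest level of 33.8 CPM. Of 193 *Pax6* counts in ES-motor neurons, 80 were in control replicate B, the deepest library, and 68 in C1Q and C5 replicate D, where they came to 23.9 CPM. The level of 33.8 CPM in IL-1β and IL-6 replicate B rests on 3 counts. *Pax6* did not overlap between the cell types in the control and TGF-β2 groups, and overlapped in the other 3.

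The log2 fold change of *Pax6* over the 5 treatments was −3.32 ± 0.72 (edgeR adjusted p = 0.000445). The log2 ratio of mean CPM was −4.54 within plate index 1, and −5.39 without ES-motor neuron control replicate B or −5.14 without IL-1α and TNF-α replicate C. Within plate index 2 it was −2.26, and −3.27 without ES-motor neuron IL-1β and IL-6 replicate B with its 3 counts. Ratios within single treatments turn on 1 ES-motor neuron library in 4 of the 5 treatments and are not compared here. With C1Q and C5, for example, all 68 counts of *Pax6* in ES-motor neurons were in replicate D, and with IL-1α and TNF-α there was 1 count in all.

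*Nkx2-2*, a factor of the p3 domain from which V3 interneurons arise, was counted in 18 of 20 ES-astrocyte libraries at 0 to 14.7 CPM (median 4.52), and in no ES-motor neuron library. *Foxa2*, the forkhead factor of the floor plate, was counted in 20 of 20 ES-astrocyte libraries at 0.364 to 45.1 CPM (median 13.1), and in no ES-motor neuron library. *Dbx1*, a factor of the p0 domain in the intermediate neural tube, was counted in 13 of 20 ES-astrocyte libraries at 0 to 52.3 CPM (median 5.81), and in no ES-motor neuron library. These 3 genes, which mark domains on either side of the motor neuron domain, thus share the pattern of presence in most ES-astrocyte libraries and 0 counts in all 20 of the others.

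By measured values *Foxa2* separated the cell types in every treatment, the lowest ES-astrocyte library being control replicate C with 1 count. *Nkx2-2* separated them in control, IL-1β and IL-6, and TGF-β2, and had an ES-astrocyte library at 0 in each of the other groups. *Dbx1* had an ES-astrocyte library at 0 in each of the 5 treatments. Its levels in ES-astrocytes fell into libraries without a count and libraries at 2.31 to 52.3 CPM.

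Summed over the 5 treatments, the bound in ES-motor neurons for *Nkx2-2* was at least 134-fold lower (edgeR adjusted p = 9.81e-06), *Foxa2* at least 351-fold lower (9.31e-08) and *Dbx1* at least 307-fold lower (7.61e-05). Without the deepest ES-motor neuron library these bounds were 93.2, 245 and 214. Without both ES-astrocyte libraries of highest *Mnx1* they were 128, 299 and 233. Within plate index 1 the bounds were 53.4 for *Nkx2-2*, 158 for *Foxa2* and 140.2 for *Dbx1*. Most of this depth was ES-motor neuron control replicate B, without which they were 9.999, 29.5 and 26.2. Without ES-astrocyte control replicate B that of *Nkx2-2* was 34.7, and without replicate A that of *Dbx1* was 74.4. Within plate index 2 the bounds were 79.4, 188 and 161, and without ES-motor neuron IL-1β and IL-6 replicate A they were 48.6, 115 and 98.6.

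Depth limits how far these zeros reach. A level of 3 counts came to 0.230 to 2.04 CPM over the ES-astrocyte libraries and to 0.153 to 202 CPM over the ES-motor neuron libraries. In 15 ES-motor neuron libraries 3 counts lie below the median *Foxa2* level of ES-astrocytes, and all 15 had 0 counts of it. For *Nkx2-2* and for *Dbx1* this holds for 11 libraries, again all at 0. For *Pax6* it holds for 17 libraries, of which 9 had 0 counts, and for *Nkx6-1* for 19, of which 0 had 0 counts. With IL-1α and TNF-α, whose 4 ES-motor neuron libraries are shallow, the bound was at least 5.39-fold lower for *Foxa2*, and 3.003 without replicate B of them. For *Nkx2-2* (1.88) and *Dbx1* (3.44) it was 0.678 without ES-astrocyte replicate A, so that the zeros of these genes bound nothing in that group.

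**Figure D2:**
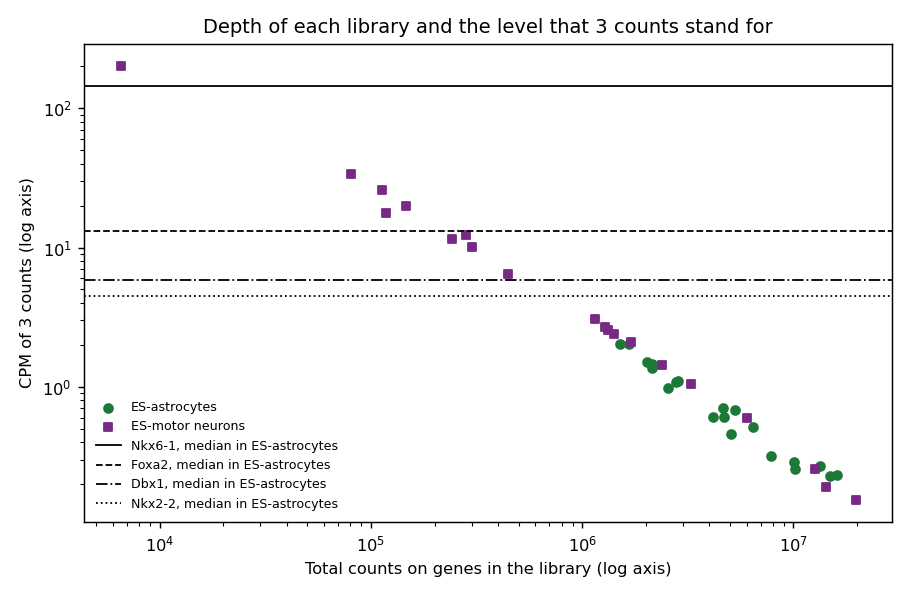
Total counts on genes (horizontal log axis) and the CPM that 3 counts stand for (vertical log axis) in each of 40 libraries (circles, ES-astrocytes; squares, ES-motor neurons), with the median CPM of 4 genes in the 20 ES-astrocyte libraries as lines. In 15 ES-motor neuron libraries the point lies below the *Foxa2* line, and in 11 below the *Dbx1* and *Nkx2-2* lines.

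*Irx3*, a factor of intermediate progenitors whose mutual repression with *Olig2* sets the upper border of the motor neuron domain, was counted in 18 ES-astrocyte libraries (0 to 22.6 CPM, median 2.89) and 12 ES-motor neuron libraries (0 to 20.0 CPM, median 0.778). *Irx5*, a related factor of the same cluster of genes, was counted in 20 ES-astrocyte libraries (0.467 to 28.0 CPM, median 7.86) and 15 ES-motor neuron libraries (0 to 41.3 CPM, median 6.02). The cell types overlapped for both genes in every treatment, and by mean CPM *Irx3* was lower in ES-motor neurons in 4 of the 5. Over the 5 treatments the log2 fold change was −1.39 ± 0.77 for *Irx3* (edgeR adjusted p = 0.245) and 0.076 ± 0.60 for *Irx5* (0.962). Without both ES-astrocyte libraries of highest *Mnx1* that of *Irx3* was −0.71 (adjusted p = 0.655; 0.187 to 0.851 over its alternatives).

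*Olig2*, the factor of motor neuron and then oligodendrocyte progenitors, was counted in 6 of 20 ES-astrocyte libraries and in 9 of 20 ES-motor neuron libraries. Its highest levels were 22.3 CPM in ES-astrocyte control replicate A and 11.3 CPM in ES-motor neurons, and its median was 0 in both cell types. *Olig1*, its neighbour on chromosome 16, had 36 counts in ES-astrocytes, of which 35 were in the C1Q and C5 group, and 0 in ES-motor neurons. *Olig2* had a log2 fold change of 0.29 ± 1.15 over the 5 treatments (edgeR adjusted p = 0.914), which was 1.66 without both ES-astrocyte libraries of highest *Mnx1* (adjusted p = 0.497; 0.497 to 0.971 over its alternatives). *Olig1* did not pass the filter on low counts. It was at least 6.64-fold lower over the 5 treatments, at least 3.69-fold without C1Q and C5 replicate B of ES-astrocytes and at least 3.71-fold without replicate D (permutation test within treatment, two-sided p = 0.214).

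Put together for the comparison of the cell types over the 5 treatments, 9 of the 10 genes passed the filter, 5 were called lower in ES-motor neurons and 0 higher. The same call was made lower for 11% and higher for 3.86% of 13227 genes tested. The 5 were *Nkx6-1*, *Pax6*, *Nkx2-2*, *Foxa2* and *Dbx1*, and the same 5 were called by DESeq2 and without both ES-astrocyte libraries of highest *Mnx1*. None of the genes had an unadjusted p under 0.05 with a positive fold change. The median log2 fold change of the 9 genes was −1.89, also with the genes without counts in ES-motor neurons at their bounds, against −0.21 over all genes tested. *Nkx2-2*, *Foxa2* and *Dbx1* passed the filter through the ES-astrocytes, so that part of this direction follows from the filter.

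Counted by groups that do not overlap, all 4 ES-motor neuron libraries lay below all 4 ES-astrocyte libraries for 4 of 10 genes in control, where the same held for 5.33% of 13227 genes. It held for 2 of 10 genes with IL-1α and TNF-α (6.52% of all genes) and for 2 with C1Q and C5 (6.34%). It held for 3 with IL-1β and IL-6 (4.97%) and for 4 with TGF-β2 (5.98%). *Nkx6-1* and *Foxa2* were among them in 5 of 5 treatments. For *Foxa2*, *Nkx2-2* and *Pax6* the lowest ES-astrocyte library of each of these groups lay under the level of 3 counts in 1 or more of the ES-motor neuron libraries, so that the separation is set in part by depth. The same holds for *Nkx6-1* with C1Q and C5. With IL-1α and TNF-α this holds for *Foxa2* in all 4 (0.918 CPM against 6.46 to 26.0 CPM). No member was higher in all 4 ES-motor neuron libraries in any treatment.

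**Figure D3:**
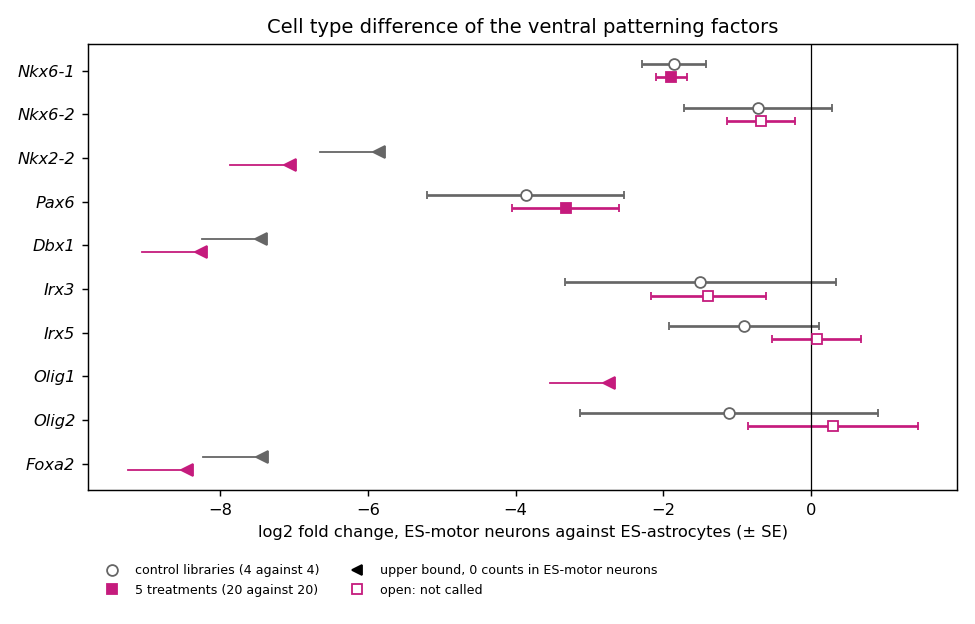
Log2 fold change with its SE of ES-motor neurons against ES-astrocytes for each gene, in the 8 control libraries (grey) and over the 5 treatments (pink), where filled symbols were called and open ones not; triangles mark bounds for genes with 0 counts in ES-motor neurons, whose calls are given in the text. *Nkx6-1* and *Pax6* lie at −1.89 and −3.32 over the 5 treatments, and *Irx5* and *Olig2* lie near 0.

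In the 8 control libraries alone, 6 of the 10 genes passed the filter and edgeR called 0, where 2.24% of 10199 genes were called in either direction (1084 at an unadjusted p under 0.05, 764 called by DESeq2). Among the 6, *Pax6* and *Nkx6-1* had an unadjusted p under 0.05, and DESeq2 called 4 of the 10 genes, *Dbx1*, *Foxa2*, *Nkx6-1* and *Pax6*. *Nkx6-1* had a log2 fold change of −1.85 ± 0.44 (edgeR adjusted p = 0.0514) and *Pax6* of −3.87 ± 1.34 (0.243). Without ES-motor neuron control replicate B, which holds 80 of the 81 *Pax6* counts there, that of *Pax6* was −6.31 (adjusted p = 0.146; 0.0169 to 0.477 over its alternatives). Without ES-astrocyte control replicate A, *Nkx6-1* was called (edgeR adjusted p = 0.0329; 0.00114 to 0.221 over its alternatives). The other genes tested had log2 fold changes of −0.72 ± 1.00 for *Nkx6-2* (edgeR adjusted p = 0.910), −1.50 ± 1.84 for *Irx3* (0.892), −0.91 ± 1.01 for *Irx5* (0.871) and −1.11 ± 2.01 for *Olig2* (0.932). With the replicate block *Olig2* turned to 4.29 and *Irx3* to 0.47. The median of the 6 in the main fit was −1.30, against −0.20 over all genes tested.

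Of the genes below the filter in control libraries, *Foxa2* was at 0.364, 17.6, 19.3 and 36.7 CPM in ES-astrocytes and *Nkx2-2* at 0.728, 1.54, 4.79 and 14.7 CPM, both with 0 counts in ES-motor neurons. Each gave the smallest p that an exact two-sided permutation test of 4 against 4 can give, 0.0286. With only zeros on the other side, this p follows once each ES-astrocyte library holds any count. In ES-astrocyte replicate C that was 1 count of *Foxa2* and 2 of *Nkx2-2*. Both levels lie under the 1.43 to 11.5 CPM that 3 counts stand for in ES-motor neuron replicates A, C and D. *Dbx1* was at 0, 6.86, 34.2 and 52.3 CPM (exact two-sided permutation test, p = 0.143), and *Olig1* had 0 counts in all 8 libraries. The bounds were at least 57.9-fold lower for *Nkx2-2*, 173-fold for *Foxa2* and 175-fold for *Dbx1*. They rest on ES-motor neuron control replicate B, without which they were 8.70, 26.0 and 26.3. Without ES-astrocyte control replicate B the bound of *Nkx2-2* was 23.9, and without replicate A that of *Dbx1* was 66.4.

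Between genes, levels can be set side by side per kb of exon. In ES-astrocytes *Nkx6-1* came first with 50.8 ± 27.4 CPM per kb (SD, n = 20), followed by *Nkx6-2* with 10.3 ± 10.1, and the ranges of 1 SD around these means do not overlap. *Foxa2* had 6.17 ± 4.95 CPM per kb, *Dbx1* 4.92 ± 6.39 and *Irx5* 3.33 ± 2.76. *Irx3* had 2.09 ± 2.37 CPM per kb, *Pax6* 2.05 ± 1.48 and *Nkx2-2* 1.85 ± 1.47. From *Nkx6-2* down to *Nkx2-2*, no neighbours in this order differ beyond their spread. *Olig2* (0.923 ± 2.10 CPM per kb) and *Olig1* (0.104 ± 0.305) came last.

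In ES-motor neurons the order began with *Nkx6-1* at 13.1 ± 6.47 CPM per kb, *Nkx6-2* at 6.27 ± 7.72 and *Irx5* at 3.11 ± 3.81. *Olig2* followed with 0.982 ± 1.37 CPM per kb, *Irx3* with 0.921 ± 1.69 and *Pax6* with 0.299 ± 0.761. All neighbours in this order overlap within 1 SD. Per kb, *Pax6* is close to *Irx3* and *Nkx2-2* in ES-astrocytes and is the lowest here of the genes with any count. This place depends on its exon length of 11694 bases, against 1907 (*Nkx6-2*) to 3138 (*Nkx6-1*) for the other members. By mean CPM without length, *Pax6* in ES-motor neurons (3.50 ± 8.90) was above *Irx3* (2.54 ± 4.66) and *Olig2* (2.48 ± 3.46), within their spread. In ES-astrocytes its mean of 24.0 CPM came second to *Nkx6-1*. ES-astrocyte libraries held a count of 6 to 10 of the 10 genes (median 8) and ES-motor neuron libraries of 0 to 6 (median 4).

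Pairs of factors that repress each other in the neural tube were often counted in the same library of about 200 cells. *Nkx2-2* and *Pax6* were both counted in 17 of 20 ES-astrocyte libraries, and *Dbx1* and *Nkx6-2* in 13. *Olig2* and *Irx3* were both counted in 5 ES-astrocyte libraries, with *Irx3* alone in 13, and in 7 ES-motor neuron libraries, with *Irx3* alone in 5 and *Olig2* alone in 2. Whether both were in the same cells was not tested, since each library pools its cells.

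The members were compared in pairs across the 20 ES-astrocyte libraries, which differ in depth and span the 5 treatments. Pearson ran from −0.49 to 0.63 over the 45 pairs, and whether members vary together more than other genes was not tested. The closest pair was *Pax6* and *Dbx1* (Pearson 0.63 and Spearman 0.63 of log2(CPM + 1), n = 20; Pearson 0.55 without the 2 libraries farthest from the *Pax6* median). Within the plates, Pearson was 0.69 over 8 libraries and 0.61 over 12. *Irx3* and *Foxa2* came next (Pearson 0.60, Spearman 0.56), at 0.51 without both libraries of highest *Mnx1* and at 0.61 and 0.63 within the plates. The most negative of the 45 pairs was *Nkx6-1* and *Irx3* (Pearson −0.49, Spearman −0.55), at −0.51 without those libraries and at −0.41 and −0.58 within the plates. *Olig2* and *Irx3* had 0.46 (Spearman 0.44), which fell to 0.24 without those libraries. It rose to 0.61 without the 2 libraries farthest from the *Olig2* median. Within plate index 1 it was 0.86, and within plate index 2 it was 0.11. These values describe libraries that share preparation and depth.

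For the 3 members of highest median CPM in ES-astrocytes, not corrected for length, the genes most like them over the same 20 libraries were sought among 13214 genes. For *Nkx6-1* they were *Gm38211*, *Gxylt1* and *Zfp101* (Pearson 0.78, 0.77 and 0.76), for *Pax6* they were *Sap30*, *Dusp11* and *Krr1* (0.80, 0.79 and 0.78), and for *Nkx6-2* they were *Ccnt1*, *Kctd20* and *C130036L24Rik* (0.78, 0.77 and 0.73). No other member was among them.

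The stimuli were compared with control to see whether neuroinflammatory proteins change the cells. In ES-astrocytes, 8 of the 10 genes passed the filter in each comparison, and *Olig1* and *Olig2* did not. With IL-1α and TNF-α edgeR called 0 of the 8, against 0% of 10444 genes (93 at an unadjusted p under 0.05, 21 called by DESeq2). The member of smallest p was *Dbx1*, at 0 to 14.2 CPM against 0 to 52.3 CPM in control (log2 fold change −2.21 ± 1.76; −1.42 without control replicate A and −3.60 without stimulated replicate A). The 8 ranged from −2.21 to 0.78 with a median of −0.52, against −0.079 over all genes.

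With C1Q and C5, 0 of 8 were called in ES-astrocytes, against 0% of 10865 genes (edgeR; 106 at an unadjusted p under 0.05, 37 by DESeq2). *Irx5* had the smallest p, at 0.673 to 7.07 CPM against 3.76 to 28.0 CPM in control (−1.96 ± 1.26; −2.30 to −1.61 over its alternatives), and the 8 ranged from −1.96 to 1.16 with a median of 0.050, against −0.069 over all genes. With IL-1β and IL-6, 0 of 8 were called, against 0% of 10240 genes (edgeR; 119 at an unadjusted p under 0.05, 56 by DESeq2). *Nkx6-1* had the smallest p (0.65 ± 0.44), which was 0.15 without ES-astrocyte IL-1β and IL-6 replicate C, and the 8 ranged from −1.37 to 0.65 with a median of −0.085, against −0.074 over all genes. With TGF-β2, 0 of 8 were called, against 0% of 10794 genes (edgeR; 136 at an unadjusted p under 0.05, 58 by DESeq2). The 8 ranged from −2.24 to −0.049 there with a median of −0.41, against −0.065 over all genes, and the smallest p was that of *Irx5* (−2.24 ± 1.25; −3.15 without stimulated replicate C and −1.87 without D), at 0.467 to 9.37 CPM.

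No gene of the 8 had an unadjusted p under 0.05 in any of the 4 comparisons in ES-astrocytes, and DESeq2 called 0 of the 10. All 4 share the same control libraries, of which replicate A is the highest for 5 of the 8 genes, *Dbx1*, *Foxa2*, *Irx3*, *Nkx6-2* and *Pax6*. The SE of the 8 genes in these comparisons lay between 0.36 for *Nkx6-1* and 2.03 for *Irx3*, so that changes of several-fold in the sparse genes could go undetected.

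In ES-motor neurons that had been on stimulated ES-astrocytes, fewer genes passed the filter. With IL-1α and TNF-α this was 1 gene, *Nkx6-1* (−0.41 ± 0.62; −0.92 to −0.076 over its alternatives), and 0 were called, against 0% of 4479 genes (edgeR; 143 at an unadjusted p under 0.05, 1 by DESeq2). With C1Q and C5 they were *Nkx6-1* (0.29 ± 0.52) and *Nkx6-2* (0.70 ± 0.95; 0.42 to 1.08), and 0 were called, against 0% of 7348 genes (edgeR; 322 at an unadjusted p under 0.05, 0 by DESeq2). With IL-1β and IL-6, 0 of 3 were called, against 0% of 8327 genes (edgeR; 98 at an unadjusted p under 0.05, 1 by DESeq2), and *Nkx6-2* had the smallest p (1.39 ± 1.01; 0.44 without stimulated replicate B and 0.092 without shallow libraries). With TGF-β2, 0 of 3 were called, against 0.0126% of 7947 genes (edgeR; 221 at an unadjusted p under 0.05, 19 by DESeq2), and *Nkx6-1* had the smallest p (−0.32 ± 0.56; −0.56 to −0.019).

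The members present in ES-motor neurons were each counted in at least 1 library under every stimulus, with *Nkx6-1* at mean levels of 29.5 to 54.8 CPM in the 5 groups. Some of this rests on very few counts, so that a maintained level is not shown. With IL-1α and TNF-α, *Pax6* and *Irx3* had 1 count each. *Olig2* was counted in 1 library with IL-1β and IL-6 and in 1 with TGF-β2. For members below the filter, exact two-sided permutation tests of the CPM gave no p under 0.05 in any of the 8 comparisons, where the smallest was 0.143, for *Olig2* with IL-1β and IL-6 in ES-motor neurons. *Nkx2-2*, *Foxa2*, *Dbx1* and *Olig1* stayed at 0 counts in ES-motor neurons of all 4 stimuli.

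Other genes of the same patterning system were read from lists written from general knowledge, and their results are for the cell types over the 5 treatments. Over all genes tested in that comparison, 11% were called lower and 3.86% higher in ES-motor neurons. Each gene called here or among the 10 differed in the direction of its fold change, by mean CPM, in 5 of 5 treatments. Of 8 other ventral progenitor and floor plate factors, 0 passed the filter. Their summed level was 0 to 10.7 CPM in ES-astrocytes, highest in control replicate A, and *Shh*, the hedgehog ligand, was the most abundant at 0.506 ± 1.61 CPM. Of the 4 other Irx genes 0 passed the filter, and *Irx2* had 394 counts on the ES-astrocyte side and none on the other (at least 72.6-fold lower, and at least 35.0-fold without ES-astrocyte control replicate B, which held 222 of the counts). *Irx6* went the other way, with 12 counts in a single ES-motor neuron library and none in ES-astrocytes. Of 12 dorsal progenitor factors 2 passed. *Olig3* was called lower in ES-motor neurons (−5.16 ± 0.87, edgeR adjusted p = 9.04e-06) and *Lmx1a* higher (3.73 ± 0.99, 0.00446), and 5 of the 12 had 0 counts in every ES-astrocyte library. Of 8 rostral factors 0 passed, with the most abundant, *En2*, at 0.471 ± 1.34 CPM in ES-astrocytes and no count of any in ES-motor neurons.

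Factors of the neurons that ventral domains produce were more abundant. Of 12 factors of postmitotic ventral interneurons 8 passed the filter, and all 8 were called lower in ES-motor neurons, against 11% of all genes tested. Most of the 8 passed through their counts in ES-astrocytes, so that part of this direction follows from the filter. Their summed level was 129 to 637 CPM in ES-astrocytes and 0 to 64.5 CPM in ES-motor neurons. *Gata3*, a V2b factor, was at 108 ± 52.4 CPM in ES-astrocytes and was counted in 3 ES-motor neuron libraries (−9.49 ± 0.52, edgeR adjusted p = 1.19e-19). *Gata2* was also lower (−7.29 ± 0.75, 7.79e-11), and *Lhx5*, without a count in that cell type, was at least 251-fold lower (4.12e-08). The part that cells with these interneuron factors have in the levels of the patterning factors in ES-astrocytes was not tested.

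Of 8 motor neuron factors all passed. In ES-motor neurons 5 were called higher and 1 lower, against 3.86% and 11% of all genes tested. The higher ones were led by *Mnx1* (8.70 ± 0.72, edgeR adjusted p = 1.26e-12), *Isl1* (3.30 ± 0.33, 4.06e-11) and *Chat* (6.07 ± 1.01, 7.55e-06). The most abundant of the list in ES-astrocytes was *Lhx4*, at 181 ± 82.0 CPM. Of 10 hedgehog genes, components and targets of the pathway, 7 passed. In ES-motor neurons 3 were called lower, against 11% of all genes tested. They were *Gli3* (−5.72 ± 0.83, edgeR adjusted p = 4.19e-07), *Ptch1* (−1.57 ± 0.33, 0.000332) and *Smo* (−3.35 ± 0.82, 0.00184). A difference in the hedgehog response was not tested. *Ptch1*, the receptor and a target of the pathway, was the most abundant in both cell types, at 61.9 ± 28.3 and 20.6 ± 19.4 CPM. *Gli1*, another target, was counted in 1 ES-astrocyte library.

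Among markers of cell types, 6 of 10 astrocyte markers passed the filter and 4 were called lower in ES-motor neurons. Over all genes tested, 11% were called lower and 3.86% higher. Markers counted mainly in ES-astrocytes passed the filter through them, so that part of this direction follows from the filter. Those of smallest p were *Fabp7* (−5.79 ± 0.29), *Slc1a3* (−6.80 ± 0.87) and *Slc1a2* (−2.90 ± 0.42). *Sox9* was called higher (1.75 ± 0.31), with ES-motor neurons at 265 ± 169 CPM and ES-astrocytes at 78.8 ± 45.1 CPM. Of 6 progenitor markers 5 passed and 4 were called lower, led by *Sox1* (−8.02 ± 0.74), *Prom1* (−2.52 ± 0.52) and *Nes* (−2.32 ± 0.52). Of 6 neuron markers 2 were called higher, *Nefl* and *Stmn2*. The levels of *Nkx6-1* and *Pax6* thus moved in the direction of the progenitor markers, but this direction is not particular to them. All 8 interneuron factors and both mesenchyme markers tested were called lower too, as were 4 of 6 tested astrocyte markers, with 1 higher. The part of progenitors or of these other cells in the difference was not tested.

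Other possible cells of the pools were also looked for. Of 5 mesenchyme markers 2 passed, through their counts in ES-astrocytes, and both were called lower in ES-motor neurons, against 11% of all genes tested. The most abundant, *Dcn*, was at 220.4 ± 188 CPM in ES-astrocytes. The summed level of that list was 36.2 to 1022 CPM, with control replicate B the highest and control replicate A at 88.5 CPM. Of 8 markers of the oligodendrocyte lineage, to which *Olig1* and *Olig2* also belong, 2 passed and 0 were called, and *Sox10* had 0 counts in ES-astrocytes. Of 4 microglia markers 1 passed and 0 were called, with *Csf1r* the most abundant (273 counts in ES-astrocytes, 307 in ES-motor neurons) and *Aif1* and *Ptprc* at 0 counts in every library. Of 4 pluripotency markers 0 passed, with *Nanog* the most abundant (0.295 ± 0.372 CPM in ES-astrocytes) and *Pou5f1* at 0 counts throughout. Of 6 endoderm markers, a tissue that also expresses *Foxa2*, 1 passed and 0 were called, with *Epcam* the most abundant (2.82 ± 7.14 CPM) and *Sox17* and *Afp* at 0 counts in ES-astrocytes. The sort by fluorescence separates *Mnx1*-positive from other cells and would not remove such cells from the ES-astrocytes.

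On the genome (build GRCm38, GENCODE M21), the 10 genes lie on 5 chromosomes. *Pax6* (105668900 to 105697364), *Nkx2-2* (147177546 to 147194243) and *Foxa2* (148042877 to 148046969) lie on chromosome 2, *Nkx6-1* on chromosome 5, and *Dbx1* (49631499 to 49636849) and *Nkx6-2* on chromosome 7. *Irx3* and *Irx5* are neighbours in 1 cluster on chromosome 8, and *Olig2* and *Olig1* on chromosome 16. *Nkx2-2* and *Foxa2*, with 0 counts in ES-motor neurons, therefore lie close together, while *Dbx1* lies elsewhere.

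Genes of the other strand overlap 5 of the 10, and the strand setting of the counts is not given in the sources used here. For *Nkx2-2* they are *Nkx2-2os* and *6430503K07Rik*, with 201 counts over the ES-astrocyte libraries and 1 over the others. For *Nkx6-2* it is *Inpp5a*, with 1437 and 672 counts. Those of *Pax6*, *Irx3* and *Olig1* had 0 to 23 counts in either cell type. *Foxa2*, *Dbx1* and *Nkx6-1* have no such overlap.

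Promoter windows of 250 bases before to 50 after a gene start were available from RefSeq (GRCm38.p6) for 8 of the 10 genes, 11 windows in all, and for *Irx5* and *Olig1* there were none. Their median GC content was 58.7%, against 52.7% for all 32851 windows. Motifs were searched on both strands as exact letters. GACCACCCA (GLI) was in 0.253% of all windows, TGTTTAC (forkhead) in 3.65%, TAATTA (homeodomain) in 5.29% and CAGCTG (E-box) in 16.3%, and each was in 0 of the 11. After these 4 gave no match, 3 general promoter motifs were added. TATAAA was in 3 of the 11 windows and 13.6% of all, CCAAT in 5 of 11 and 37.4% of all, and GGGCGG in 7 of 11 and 35.7% of all. These matches are descriptions and not binding sites, and a motif without a match says only that its letters are not in these windows.

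The windows of the 3 called genes without a count in ES-motor neurons are printed 5′ to 3′ on the minus strand, with matches of the 3 added motifs in capitals. They are at chr2:148046920-148047219 for *Foxa2*, the first of its 3 windows, at chr2:147186353-147186652 for *Nkx2-2*, which lies inside the annotated gene, and at chr7:49636786-49637085 for *Dbx1*. The *Dbx1* window holds all 3 added motifs, that of *Foxa2* holds CCAAT and GGGCGG, and that of *Nkx2-2* holds GGGCGG alone.
Foxa2: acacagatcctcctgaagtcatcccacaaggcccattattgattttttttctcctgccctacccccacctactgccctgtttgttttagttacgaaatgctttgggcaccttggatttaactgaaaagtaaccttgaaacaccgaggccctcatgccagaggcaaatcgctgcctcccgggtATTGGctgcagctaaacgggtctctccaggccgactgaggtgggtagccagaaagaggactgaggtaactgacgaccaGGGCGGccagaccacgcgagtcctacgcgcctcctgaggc
Nkx2-2: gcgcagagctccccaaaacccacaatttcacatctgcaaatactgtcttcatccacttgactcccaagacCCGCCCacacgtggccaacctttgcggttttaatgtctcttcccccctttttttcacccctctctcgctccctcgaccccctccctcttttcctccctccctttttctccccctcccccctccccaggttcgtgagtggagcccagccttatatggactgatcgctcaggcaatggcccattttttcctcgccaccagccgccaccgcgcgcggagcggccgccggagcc
Dbx1: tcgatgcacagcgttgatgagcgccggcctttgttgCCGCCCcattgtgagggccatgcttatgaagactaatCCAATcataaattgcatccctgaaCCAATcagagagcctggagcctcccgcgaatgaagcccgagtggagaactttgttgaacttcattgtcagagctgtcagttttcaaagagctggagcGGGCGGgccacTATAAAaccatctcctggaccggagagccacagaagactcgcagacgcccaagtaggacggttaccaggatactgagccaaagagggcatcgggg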

How the data were processed

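RNA of 40 libraries was sequenced, and the table of unnormalized counts that the authors deposited has a line for each Ensembl gene and 40 columns, all of which were used. The submitters' processing notes name STAR and DESeq2. The paper names biomaRt for annotation by Ensembl identifiers. Not given in the sources used here: versions of STAR and DESeq2, counting tool, strand setting, genome build and annotation release. Symbols and exon lengths came from GENCODE M21, which named 55141 of 55487 identifiers.

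Comparisons were tested with edgeR 4.0.16 in R 4.3.3 (filterByExpr, TMM, robust quasi-likelihood fit, two-sided), with the libraries of each comparison alone and Benjamini-Hochberg adjustment over all genes tested. The cell types over 5 treatments were compared with treatment as a term. Members below the filter were tested by permutation, exact for 4 against 4 and with 1e+05 resamples over the 5 treatments. Standard errors were derived from the fold change and the F statistic. For lower bounds, the summed counts of a group were divided by its effective library sizes, with 3 counts put in place of 0.

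The members and lists were chosen with earlier results of these data known. The rule for named genes takes all 10 members, the member of smallest p for each stimulus, up to 3 called genes of smallest p and the most abundant gene of each list, and the 3 genes most correlated with each of the 3 members of highest median CPM in ES-astrocytes. Other genes named (*Irx2*, *Gli1*, *Sox9* and markers at 0) were chosen after their values were seen.

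Alternatives were DESeq2 1.42.0, RLE size factors, no filter, a stricter filter (minimum count 30, total 50), a replicate block, all 40 libraries in a single fit, plain library totals, and leaving out shallow libraries or each replicate. Those without both ES-astrocyte libraries of highest *Mnx1* or without the shallowest ES-motor neuron library were chosen after seeing the data. The edgeR and DESeq2 runs were tested on simulated data. Tables were prepared in Python 3.11.15 using numpy 2.4.6, pandas 2.3.3 and scipy 1.17.1, and plots using matplotlib 3.10.9.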

Additional observations from a re-analysis of the deposited data

Results flagged for a closer look

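In each group of 4 libraries, each member was examined for a library far from the other 3 (Dixon's test at the 95% level). Of 100 combinations of member and group, 77 had any spread and 17 held such a library, and chance alone would mark about 1 in 20 groups. Many of these are genes counted in a single library of the group, for which any count stands apart.

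*Olig2* was counted in a single library in 4 of the 5 ES-astrocyte groups. That was control replicate A at 22.3 CPM (209 counts), IL-1α and TNF-α replicate B at 5.27 CPM, C1Q and C5 replicate D at 2.15 CPM and IL-1β and IL-6 replicate D at 8.32 CPM. In ES-motor neurons, *Olig2* was counted in a single library with IL-1β and IL-6 (replicate A, 1.71 CPM) and with TGF-β2 (replicate C, 7.01 CPM).

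*Irx3* in ES-astrocyte control replicate A stood at 22.6 CPM, with the next library at 2.56 CPM. *Foxa2* in ES-astrocyte IL-1β and IL-6 replicate A stood at 45.1 CPM, with the next at 8.81 CPM. *Nkx6-1* in ES-astrocyte IL-1β and IL-6 replicate C stood at 479 CPM (6163 counts), with the next at 197 CPM. *Nkx6-2* in ES-astrocyte C1Q and C5 replicate D stood at 88.7 CPM (577 counts), with the next at 20.4 CPM. Each of these 4 rests on well over 100 counts in its library.

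*Pax6* in ES-motor neurons stood apart in control replicate B (4.08 CPM, 80 counts), C1Q and C5 replicate D (23.9 CPM, 68 counts), IL-1β and IL-6 replicate B (33.8 CPM, 3 counts) and IL-1α and TNF-α replicate C (3.35 CPM, 1 count). The other libraries were *Nkx6-2* in ES-motor neuron IL-1α and TNF-α replicate C (20.1 CPM, 6 counts), *Irx3* in ES-motor neuron IL-1α and TNF-α replicate B (2.15 CPM, 1 count) and *Olig1* in ES-astrocyte TGF-β2 replicate C (0.360 CPM, 1 count). The causes were not tested.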

How the results depend on the processing

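In control libraries the count of members called was 0 in 12 of 15 alternatives, the replicate block among them, 4 by DESeq2, 2 with all 40 libraries in 1 fit (*Foxa2* and *Nkx6-1*) and 0 to 1 when each library was left out (1 without ES-astrocyte replicate A, *Nkx6-1*). The cause was not tested. Over the 5 treatments it was 5 in 11 of 12 alternatives, with the same 5 genes, and 4 with the stricter filter, under which *Nkx2-2* was not tested. Adjusted p over these alternatives was 6.56e-21 to 3.30e-06 for *Nkx6-1* and 1.80e-06 to 0.0156 for *Pax6*. For the stimuli it was 0 in every alternative run. Exclusion of shallow libraries was not run for IL-1α and TNF-α in ES-motor neurons, where none of the 4 would remain. Log2 fold changes of uncalled members changed sign: in control libraries *Olig2* to 4.29 and *Irx3* to 0.47 with the replicate block, and over the 5 treatments *Olig2* to −0.36 without replicate C (1.74 without D), and *Irx5* to −0.052 with the block, −0.10 without shallow libraries and −0.57 without replicate A (0.40 without C). The cause was not tested. Over all genes, 41 (block) to 764 (DESeq2) were called in control libraries, 72 to 401 with each library left out, and 1447 to 2820 over the 5 treatments. Pairing of libraries by replicate letter was checked for the control cell types and the stimuli. All 4 same-letter correlations were above 0.1 in none of the 9 comparisons, a bar that weak or partial pairing would miss. They ran from −0.22 (replicate A, C1Q and C5 in ES-astrocytes) to 0.40 (replicate A, TGF-β2 in ES-astrocytes). Whether the letters pair libraries is therefore not settled. Pairing of the cell types within the 4 stimuli was not checked. The replicate block over the 5 treatments gave the same 5 calls. Mean CPM with plain library totals lay within 1 SD for 20 of 20 means of members by cell type. Those of *Nkx2-2*, *Foxa2*, *Dbx1* and *Olig1* in ES-motor neurons are 0 under any scaling and could not differ. Shallow ES-motor neuron libraries limit what a count of 0 says.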
